A study of Caenorhabditis elegans with 34 samples.

Results

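The longevity and stress transcription factors described here are 10 genes of Caenorhabditis elegans, skn-1, wdr-23, hsf-1, pqm-1, pha-4, sptf-3, mml-1, mxl-2, mdl-1 and mxl-1, taken by name. They are 10 of the 20222 genes in the count table, and all 10 passed the filter on low counts that kept 14245 genes. All but wdr-23 encode DNA-binding proteins. wdr-23 encodes a repressor of SKN-1, and the name transcription factor does not apply to it.

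RNA was sequenced from whole adults sorted by a fluorescent biomarker that forecasts lifespan, in 34 libraries of pooled animals from 17 numbered sorts. All animals carried the temperature-sensitive spe-9 (hc88) mutation, which blocks fertilization, fed on E. coli OP50 at 25 °C, and were sorted on day 5 into the top 10% (high) and the bottom 10% (low) of fluorescence. The predicted long-lived groups were lin-4p::GFP high (n = 6), mir-243p::GFP high (n = 4), mir-240/786p::GFP low (n = 4) and autofluorescence low (n = 3), and the predicted short-lived groups were lin-4p::GFP low (n = 6), mir-243p::GFP low (n = 4), mir-240/786p::GFP high (n = 4) and autofluorescence high (n = 3). In the 3 reporter strains the promoter of a microRNA drives GFP, in the posterior intestine for lin-4p::GFP, in the intestine for mir-243p::GFP and in the spermatheca for mir-240/786p::GFP, whereas autofluorescence is the natural red signal of animals without a reporter. The labels do not say whether each sort came from its own culture, so that p-values measure the spread between sorts. They treat the high and low library of a sort as independent, except where the sort is fitted as a block.

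SKN-1 is the worm relative of mammalian Nrf factors and switches on detoxification and antioxidant genes, and WDR-23 holds it back by handing it to a CUL-4 and DDB-1 ubiquitin ligase. HSF-1 is the heat shock factor, PQM-1 is a zinc finger factor that works opposite the FOXO factor DAF-16, PHA-4 is the FoxA factor that specifies the pharynx and is needed for the long life of diet-restricted worms, and SPTF-3 is a member of the Sp family of zinc finger factors. MML-1 (Mondo) and MXL-2 (Mlx) bind DNA as a pair that favours long life in several long-lived mutants, and MDL-1 (Mad) and MXL-1 (Max) form a related pair that acts in the opposite direction. Much of the control over these factors acts on the protein, through its location, phosphorylation or breakdown, which counts of RNA do not show.

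Library totals ran between 15.8 and 26.1 M counts (M, 1000000), 20.9 M at the median library. The floor of 3 counts was thus worth 0.190 and 0.115 counts per M (CPM) at the lowest and highest totals. Every member had between 71 and 7591 counts in every library. The lin-4p::GFP high libraries of sorts 1 and 2 stood apart from those of sorts 3 to 6 in several members, and several results are given with and without them. In some members the low libraries of these sorts stood apart too. Low libraries had 49.9 and 35.8 CPM of mdl-1 in sorts 1 and 2, against 24.1 to 30.3 CPM in sorts 3 to 6. For mxl-2 they had 41.4 and 37.0 CPM, against 53.8 to 72.9 CPM. The split was made with these levels known, so that p-values in either part alone describe it and are not a test. Exact positions refer to the WBcel235 build, and only skn-1 (41 exonic bases, 1.39%, shared with csn-5 on the other strand) and mml-1 (97 bases, 2.71%, shared with the noncoding RNA T20B12.11 on the other strand) overlap the exons of another gene.

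The levels of the 10 genes were compared per length, as CPM per kb of exon averaged over the 34 libraries. The highest was mxl-1 at 96.2 CPM per kb, above 89.5% of the genes tested, followed by mxl-2 at 85.5, skn-1 at 85.0, sptf-3 at 71.2 and hsf-1 at 59.4 CPM per kb. The other members were wdr-23 at 46.3, mdl-1 at 27.4, pqm-1 at 24.6 and mml-1 at 15.1 CPM per kb. The lowest was pha-4 at 6.22 CPM per kb, above 41.1% of genes. Within both bHLH-Zip pairs the small common partner (mxl-2, mxl-1) was thus more abundant per length than the specific factor (mml-1, mdl-1).

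**Figure D1:**
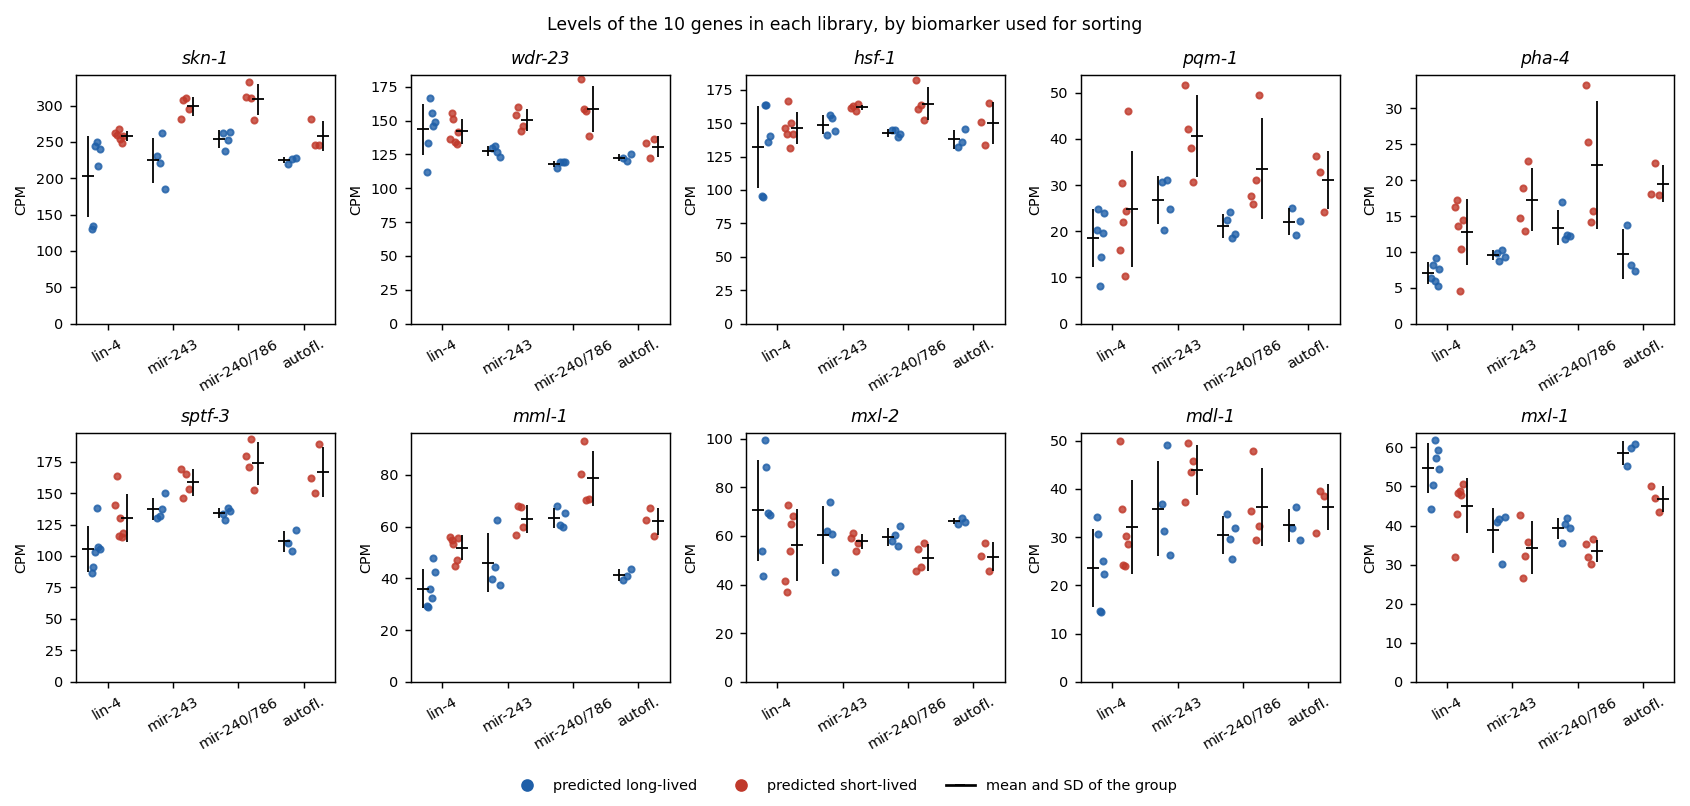
Level of each of the 10 genes in every library, in CPM on a linear axis that starts at 0, with predicted long-lived libraries in blue to the left of predicted short-lived libraries in red for each biomarker. Horizontal ticks and bars are the mean and SD of a group. For pha-4, mir-243p::GFP high libraries lie between 8.72 and 10.3 CPM and mir-243p::GFP low libraries between 12.9 and 22.7 CPM.

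Over all 4 biomarkers, 8 of the 10 genes were lower and 2, mxl-1 and mxl-2, were higher in predicted long-lived animals. At the threshold of the study, an adjusted p under 0.0001 in edgeR's quasi-likelihood test with the biomarker as a term (a call), 3 members were lower, pha-4, mml-1 and sptf-3, and none was higher. Over all genes tested 40.6% were called, 21.6% lower and 19% higher. With the sort as a block the same 3 members were called, where 44.5% of all genes were. At an adjusted p under 0.05 all 10 members passed, 8 lower and 2 higher, where 70.2% of all genes did, 35.6% lower and 34.7% higher. The median log2 fold change of the members was -0.32, beside -0.01 over all genes tested. The changes were of ordinary size, since 25.7% of genes tested had a pooled change at least as large as that of pha-4 and 47.2% one as large as that of mml-1.

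Each sort gave 1 high and 1 low library, which allowed the direction to be counted in 17 pairs. skn-1 was lower in the predicted long-lived library in 17 of 17 sorts, and pha-4, mml-1 and sptf-3 in 16 of 17. hsf-1, pqm-1 and mdl-1 were lower in 15 sorts and wdr-23 in 13, while mxl-2 was higher in 16 sorts and mxl-1 in 15. Among all genes tested 28.2% had the same direction in all 17 sorts, 43.2% in at least 16 and 54.3% in at least 15.

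**Figure D2:**
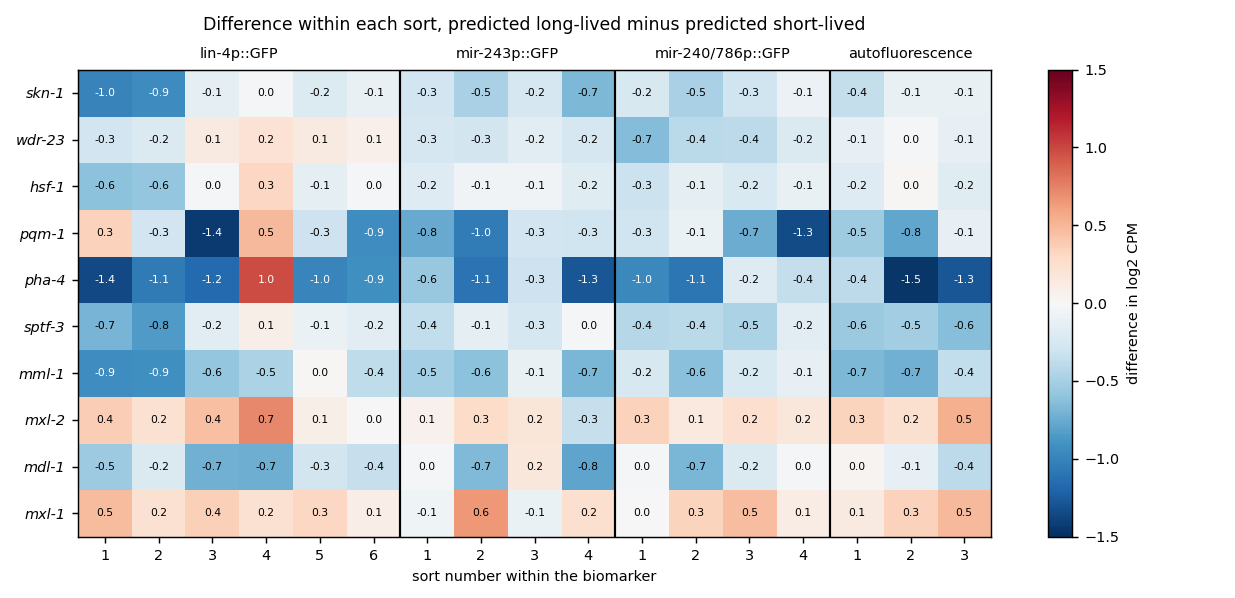
Difference in log2 CPM within each of the 17 sorts, predicted long-lived minus predicted short-lived, for the 10 genes (rows) and the sorts of each biomarker (columns), blue for lower and red for higher in predicted long-lived animals. skn-1 is blue or near white throughout, between -1.0005 and -0.02, and mxl-2 runs from -0.35 to 0.72.

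**Figure D3:**
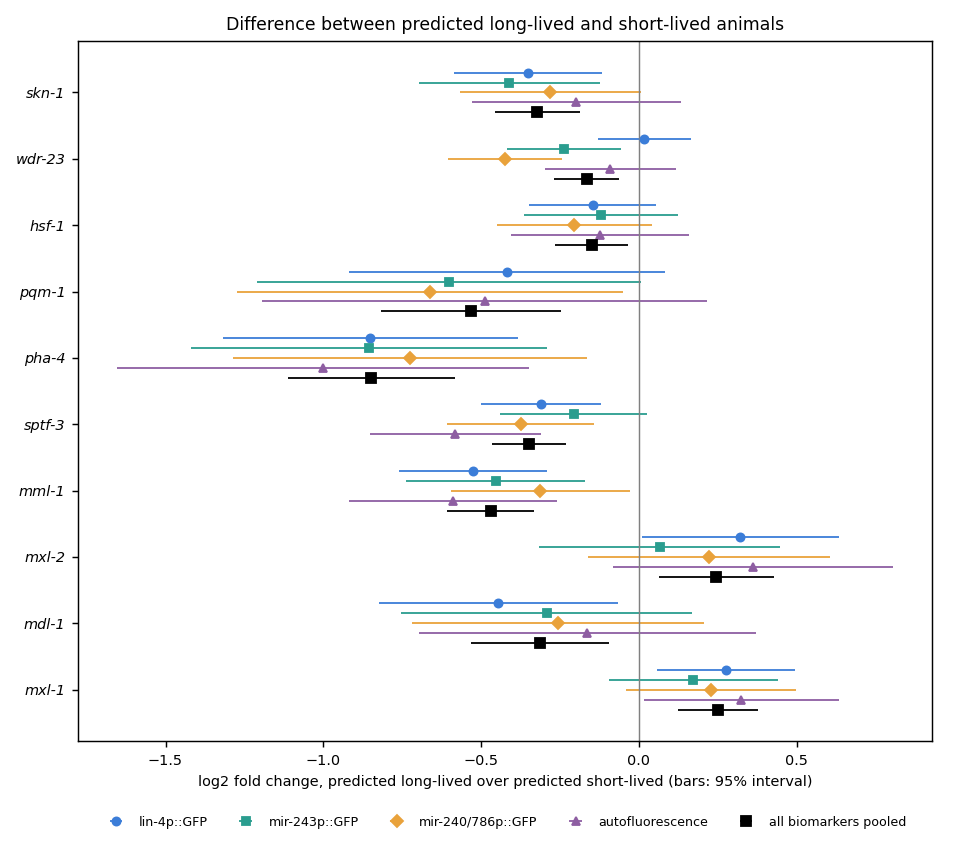
Log2 fold change, predicted long-lived over predicted short-lived, of each gene within each biomarker and pooled over the 4, with bars for the 95% interval (normal approximation to the SE of the fit). The pooled value of pha-4 is -0.85 and those of mxl-2 and mxl-1 are 0.24 and 0.25.

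skn-1 was lower in the predicted long-lived library of every sort, without passing the threshold of a call in the pooled test, and wdr-23 had its largest difference with mir-240/786p::GFP. skn-1 (WBGene00004804, chromosome IV, 5651039 to 5660384) averaged 224 ± 39.6 CPM in predicted long-lived libraries and 280 ± 27.3 CPM in predicted short-lived libraries (SD, n = 17 each). Its pooled log2 fold change was -0.32 ± 0.07 (SE), with an adjusted p of 0.000120 (edgeR), just above the threshold of 0.0001. The call was made in 6 of the 34 fits that left out 1 library (lin-4p::GFP high of sorts 1, 2, 3, 4 or 6, or mir-243p::GFP high of sort 3), with DESeq2 (adjusted p 3.73e-05) and with library totals in place of TMM scaling (2.48e-07).

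With mir-243p::GFP, skn-1 had 230, 221, 262 and 186 CPM in high libraries, against 281, 308, 311 and 295 CPM in low libraries. With mir-240/786p::GFP it had 263, 238, 252 and 263 CPM in low libraries, against 311, 333, 310 and 280 CPM in high libraries. With autofluorescence it had 220, 227 and 227 CPM in low libraries, against 281, 246 and 246 CPM in high libraries. In all 3 comparisons the groups did not overlap, which held for 31.5%, 56.7% and 64.9% of all genes tested with mir-243p::GFP, mir-240/786p::GFP and autofluorescence. Among the 10 members the groups did not overlap for 4 with mir-243p::GFP, 6 with mir-240/786p::GFP, 6 with autofluorescence and 0 with lin-4p::GFP, where 17% of all genes did not.

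With lin-4p::GFP the difference in skn-1 lay mostly in sorts 1 and 2. The lin-4p::GFP high libraries had 131 and 135 CPM in sorts 1 and 2 and 245, 249, 217 and 240 CPM in sorts 3 to 6, while the low libraries had between 249 and 268 CPM. The log2 fold change was -0.90 (adjusted p 4.59e-06, edgeR) in sorts 1 and 2 alone and -0.13 (0.203) in sorts 3 to 6 alone. Sorts 1 and 2 were set apart with these levels known, so that these p-values describe the split and do not test it. Without sorts 1 and 2 the pooled difference of skn-1 was smaller, -0.24 ± 0.04, and its adjusted p of 1.65e-05 fell under the threshold, so that 4 of the 10 members were called, where 43.4% of all genes were.

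wdr-23 (WBGene00008419, chromosome I, 7595776 to 7602221), the adaptor that marks SKN-1 for breakdown, had 115, 120, 119 and 119 CPM in mir-240/786p::GFP low libraries, against 181, 158, 157 and 139 CPM in high libraries. This was the largest change of wdr-23, a log2 fold change of -0.43 ± 0.09 with an adjusted p of 0.000339 (edgeR) and 4.22e-05 with DESeq2. In mir-243p::GFP high libraries it had 129, 131, 127 and 123 CPM, against 154, 160, 142 and 146 CPM in low libraries, and the groups again did not overlap (log2 fold change -0.24 ± 0.09, adjusted p 0.0583, and 0.0316 with the sort as a block).

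With autofluorescence, wdr-23 in low libraries had 122, 120 and 125 CPM, against 133, 122 and 137 CPM in high libraries, with overlap. In lin-4p::GFP libraries it differed little, with a lowest, median and highest level of 112, 147 and 166 CPM when high and 133, 139 and 155 CPM when low (log2 fold change 0.02 ± 0.08, adjusted p 0.869), and its sign turned with the scaling. The test of whether the difference varied between biomarkers gave an adjusted p of 0.109 for wdr-23 (edgeR), 0.0419 with the sort as a block and 0.0379 with DESeq2. It was the lowest such p among the members. No member passed 0.0001 or 0.05 in that test (edgeR), where 0% and 1.74% of all genes did. wdr-23 was the 1 member under an unadjusted p of 0.05, where 18.1% of genes were, and under an adjusted p of 0.05 with the block or DESeq2, where 16% and 7.20% were.

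The ratio of skn-1 to wdr-23 within a library does not depend on how libraries are scaled and was taken as a description. It was lower in predicted long-lived libraries in 13 of 17 sorts. With lin-4p::GFP the log2 ratio averaged 0.46 ± 0.28 in high and 0.87 ± 0.07 in low libraries without overlap. The high libraries had 0.22 and 0.01 in sorts 1 and 2 and between 0.55 and 0.69 in sorts 3 to 6, against 0.74 to 0.94 in low libraries. With mir-243p::GFP it averaged 0.81 ± 0.19 in high and 0.99 ± 0.11 in low libraries, and with autofluorescence 0.87 ± 0.04 in low and 0.98 ± 0.12 in high libraries, both with overlap. With mir-240/786p::GFP the order was the other way, 1.10 ± 0.09 in low and 0.96 ± 0.12 in high libraries, also with overlap, since wdr-23 was lower there by more than skn-1.

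Among 17 regulators of SKN-1 that were tested, 5 were lower and 3 higher in the pooled comparison at 0.0001, with a median log2 fold change of -0.13. Over all genes tested 21.6% were lower and 19% higher at that threshold, which is the background of every list in the pooled comparison. The kinases of the p38 cascade that phosphorylates SKN-1 were lower, sek-1 by a log2 fold change of -1.08 and pmk-1 of -1.02 (adjusted p 6.57e-13 and 3.89e-12). The kinase gene sgk-1 was higher at 1.35 (2.47e-11), and ogt-1, the O-GlcNAc transferase, was lower at -0.56 (6.37e-10). cul-4 and ddb-1, the ligase that works with WDR-23, gave -0.08 and -0.13 (0.317 and 0.0237).

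Of 15 genes commonly read as SKN-1 output, 4 were higher and 2 lower, where 19% and 21.6% of all genes were, with a median of -0.02. dhs-8, a short-chain dehydrogenase, was lower at -1.98 (8.24e-12), whereas the glutathione S-transferases gst-13 and gst-10 were higher at 1.35 (1.81e-07) and 1.32 (5.29e-07). gss-1, glutathione synthetase, was higher at 0.35 (1.79e-06). The readout genes thus moved in both directions, and gcs-1, the rate-limiting enzyme of glutathione synthesis, gave -0.02 (0.656).

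hsf-1 was slightly lower in predicted long-lived animals, and the chaperone genes that it drives were mostly lower by more. hsf-1 (WBGene00002004, chromosome I, 11953507 to 11963085) averaged 140 ± 18.97 CPM in predicted long-lived and 155 ± 13.1 CPM in predicted short-lived libraries (SD, n = 17 each). The pooled log2 fold change was -0.15 ± 0.06 with an adjusted p of 0.0227 (edgeR), lower in 15 of 17 sorts.

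In mir-243p::GFP high libraries hsf-1 had 141, 156, 153 and 144 CPM, against 161, 163, 159 and 164 CPM in low libraries. In mir-240/786p::GFP low libraries it had 145, 145, 139 and 142 CPM, against 182, 160, 164 and 153 CPM in high libraries. In both comparisons the groups did not overlap, while neither difference passed 0.05 (adjusted p 0.518 and 0.172). Autofluorescence low libraries had 132, 136 and 146 CPM, against 151, 134 and 165 CPM in high libraries, and these groups overlapped.

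In lin-4p::GFP high libraries hsf-1 had 95.5 and 94.9 CPM in sorts 1 and 2, below every other library of the study, and 163, 163, 136 and 140 CPM in sorts 3 to 6, against 131 to 167 CPM in low libraries. The log2 fold change was -0.52 (adjusted p 9.33e-05) in sorts 1 and 2 alone and 0.01 (0.932) in sorts 3 to 6 alone. Without these sorts the pooled value was -0.09, with an adjusted p of 0.0547, and it was 0.0567 without the lin-4p::GFP low library of sort 3 alone.

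None of 7 regulators of HSF-1 was higher and 2 were lower at 0.0001, where 19% and 21.6% of all genes were. jmjd-3.1, a histone H3K27 demethylase that keeps heat shock genes open in young adults, was lower at a log2 fold change of -1.49 (adjusted p 1.21e-12) and the kinase gene hpk-1 at -0.54 (9.90e-06). ccar-1, a brake on the heat shock response, gave -0.45 (0.000171) and the sirtuin gene sir-2.1 -0.16 (0.00262). hsb-1, which encodes a protein that binds and restrains HSF-1, gave 0.02 (0.716).

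Of 16 chaperone genes downstream of HSF-1, 11 were lower and 1 was higher, where 21.6% and 19% of all genes were. Their median log2 fold change was -0.85. Without lin-4p::GFP sorts 1 and 2, 10 were lower and 2 higher and the median was -0.77. The Hsp70 genes F44E5.5 and F44E5.4, near-identical copies whose reads the counting could have divided, were both lower at -2.40 (adjusted p 1.85e-09 and 1.97e-09). The 11 pooled calls also held hsp-70, hsp-16.1, hsp-16.2, hsp-16.41 and hsp-16.48. Levels of hsp-16.2 and hsp-16.41 were near equal, at 20.2 and 19.9 CPM in the median library. The count may thus overstate the number of separate changes. dnj-12, a DnaJ cochaperone, was lower at -0.43 (1.69e-08) and the BAG-family cochaperone gene bag-1 was higher at 0.30 (2.82e-07). hsp-1, hsp-110 and dnj-13 differed little (0.08, 0.02 and -0.004), and sti-1 gave 0.39 (0.000127). At an adjusted p under 0.05, 11 of the chaperone genes were lower and 1 higher with lin-4p::GFP, and 11 and 2 with mir-240/786p::GFP. With mir-243p::GFP 2 were lower and none higher, and with autofluorescence 4 and 2.

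pqm-1 was lower in predicted long-lived animals with a wide spread between libraries. pqm-1 (WBGene00004096, chromosome II, 11150391 to 11152595) averaged 21.7 ± 5.49 CPM in predicted long-lived and 31.7 ± 11.4 CPM in predicted short-lived libraries (SD, n = 17 each). Pooled, its log2 fold change was -0.53 ± 0.15, a 1.45-fold lower level, with an adjusted p of 0.00172 (edgeR), lower in 15 of 17 sorts.

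In mir-240/786p::GFP low libraries pqm-1 had 22.4, 24.3, 18.5 and 19.5 CPM, against 27.6, 26.0, 31.1 and 49.5 CPM in high libraries, without overlap. In mir-243p::GFP high libraries it had 30.6, 20.3, 31.2 and 24.9 CPM, against 51.7, 42.2, 38.1 and 30.6 CPM in low libraries. Autofluorescence low libraries had 24.9, 19.1 and 22.2 CPM, against 36.3, 32.8 and 24.1 CPM in high libraries. No single biomarker passed 0.05 for pqm-1, with adjusted p between 0.0763 (0.0398 with the sort as a block) for mir-240/786p::GFP and 0.279 for autofluorescence.

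The lin-4p::GFP libraries varied most in pqm-1, with a lowest, median and highest level of 8.06, 19.97 and 24.9 CPM when high and 10.3, 23.3 and 46.1 CPM when low. Within a sort the difference in log2 CPM lay between -1.44 and 0.49. In sorts 1 and 2 alone the log2 fold change was 0.03, and in sorts 3 to 6 alone it was -0.65.

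daf-16, the FOXO factor whose nuclear presence alternates with that of PQM-1, had a pooled log2 fold change of 0.06 (adjusted p 0.646). The log2 ratio of pqm-1 to daf-16, a pair chosen with earlier results known, was lower in predicted long-lived libraries in 14 of 17 sorts. Its mean differences lay between -0.77 (mir-240/786p::GFP) and -0.34 (lin-4p::GFP). Since daf-16 differed little in the pooled comparison, the ratio largely restates the difference of pqm-1, which was itself lower in 15 of 17 sorts. Of the 5 partners of PQM-1 tested, 2 were higher and 1 was lower, where 19% and 21.6% of all genes were. ceh-60, a PBX homeobox gene, was higher at 1.12 (1.21e-08) while its TALE homeobox partner unc-62 was lower at -0.63 (6.30e-09), and the intestinal GATA factor gene elt-2 gave 0.78 (0.000148).

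pha-4 showed the largest difference of the 10 genes. Its direction was the same with every biomarker, as was that of every other member but wdr-23. pha-4 (WBGene00004013, chromosome V, 20753052 to 20760317) averaged 9.61 ± 3.06 CPM in predicted long-lived and 17.2 ± 6.36 CPM in predicted short-lived libraries (SD, n = 17 each). The pooled log2 fold change was -0.85 ± 0.14, a 1.80-fold lower level, with an adjusted p of 1.51e-06 (edgeR).

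In mir-243p::GFP high libraries pha-4 had 9.88, 8.72, 10.3 and 9.28 CPM, against 14.7, 18.9, 12.9 and 22.7 CPM in low libraries. In autofluorescence low libraries it had 13.7, 8.13 and 7.33 CPM, against 18.1, 22.5 and 17.98 CPM in high libraries. In both comparisons the groups did not overlap, and the log2 fold changes were -0.85 (adjusted p 0.0304) and -1.0009 (0.0164).

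In mir-240/786p::GFP low libraries pha-4 had 17.02, 11.9, 12.4 and 12.2 CPM, against 33.3, 25.3, 14.2 and 15.7 CPM in high libraries. The groups overlapped through the low library of sort 1, whose own high library was the highest of the study, and the log2 fold change was -0.72 (adjusted p 0.0347, and 0.0507 with the sort as a block). In lin-4p::GFP high libraries it had 6.33, 8.24, 5.99, 9.18, 5.23 and 7.56 CPM, against 16.3, 17.2, 13.6, 4.61, 10.5 and 14.4 CPM in low libraries. Only sort 4 ran the other way, by 0.98 in log2 CPM, and the log2 fold change over the 6 sorts was -0.85 (0.00391). It was -0.65 (0.0789) in sorts 3 to 6 alone.

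pha-4 is active in the pharynx, the intestine and the gonad. In whole animals a smaller share of such a tissue in the RNA cannot be told apart from less pha-4 RNA within it. The summed level of 5 pharynx muscle markers (myo-1, myo-2, tnt-4, tni-4, tnc-2) ran between 38.1 and 69.7 CPM in autofluorescence low libraries, against 11.8 and 22.7 CPM in high libraries, and its groups overlapped with the other biomarkers. In the pooled comparison 1 of the 5, tni-4, was called, higher at 0.89 (5.51e-07), and none was lower. Of 7 intestine markers 4 were higher and none lower, with ges-1 at 2.01 (4.69e-10). Their sum ran between 149 and 203 CPM in autofluorescence low libraries, against 58.4 and 124 CPM in high libraries, and its groups overlapped with the other 3 biomarkers. The part of these tissues in the difference in pha-4 was not tested.

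Of 13 partners and targets of PHA-4, 4 were lower and 3 higher at 0.0001, where 21.6% and 19% of all genes were. The median of the list was -0.26, and 5 were lower and 4 higher without lin-4p::GFP sorts 1 and 2. unc-51, the ULK kinase gene that starts autophagy, was lower at -0.66 (1.80e-08), and sod-4, an extracellular superoxide dismutase, was lower at -0.95 (3.67e-08). ubc-18, a ubiquitin-conjugating enzyme that acts with WWP-1 in diet restriction, was higher at 0.38 (5.31e-08). lipl-4, a lysosomal lipase, was higher at 2.26 (9.55e-08), a 4.79-fold change at a level near the floor. It ran from 0 to 3.02 CPM, with 0.655 CPM at the median library.

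In the Myc-related family the 2 factors with the specific role, mml-1 and mdl-1, were lower and the 2 small partners, mxl-2 and mxl-1, were higher in predicted long-lived animals. mml-1 (WBGene00003378, chromosome III, 7370130 to 7374731) averaged 45.7 ± 12.7 CPM in predicted long-lived and 62.6 ± 12.1 CPM in predicted short-lived libraries (SD, n = 17 each). Pooled, its log2 fold change was -0.47 ± 0.07, a 1.38-fold lower level, with the smallest adjusted p of the members, 4.70e-07 (edgeR).

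In autofluorescence low libraries mml-1 had 39.3, 40.8 and 43.6 CPM, against 62.4, 67.1 and 56.6 CPM in high libraries. In mir-240/786p::GFP low libraries it had 68.1, 60.5, 59.8 and 65.1 CPM, against 80.5, 93.1, 70.3 and 70.8 CPM in high libraries. In both comparisons the groups did not overlap, with log2 fold changes of -0.59 (adjusted p 0.00590) and -0.31 (0.0716).

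In mir-243p::GFP high libraries mml-1 had 39.7, 44.3, 62.5 and 37.4 CPM, against 56.7, 67.9, 67.4 and 59.97 CPM in low libraries, and the groups met through the high library of sort 3 (log2 fold change -0.45, adjusted p 0.0229). In lin-4p::GFP high libraries it had 29.3, 28.9, 35.7, 32.3, 47.8 and 42.6 CPM, against 56.0, 54.9, 53.5, 44.8, 47.0 and 55.5 CPM in low libraries. Only in sort 5 was the high library higher, by 0.02 in log2 CPM. The log2 fold change was -0.53 (adjusted p 0.000574), -0.86 (0.000419) in sorts 1 and 2 alone and -0.36 (0.0372) in sorts 3 to 6 alone.

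mxl-2 (WBGene00003510, chromosome III, 186949 to 188131), the partner of mml-1, averaged 64.8 ± 13.8 CPM in predicted long-lived and 54.6 ± 9.44 CPM in predicted short-lived libraries (SD, n = 17 each). The pooled log2 fold change was 0.24 ± 0.09 with an adjusted p of 0.0195 (edgeR), higher in 16 of 17 sorts. In autofluorescence low libraries it had 65.1, 67.3 and 65.8 CPM, against 51.7, 57.2 and 45.4 CPM in high libraries, without overlap. In mir-240/786p::GFP low libraries it had 58.1, 60.3, 55.9 and 64.2 CPM, against 45.7, 54.6, 47.1 and 57.0 CPM in high libraries. The mir-243p::GFP high libraries had 62.2, 74.0, 60.9 and 45.0 CPM, against 59.3, 61.1, 53.7 and 57.2 CPM in low libraries, and sort 4, at -0.35 in log2 CPM, was the only sort of the study in which mxl-2 was lower. With lin-4p::GFP its lowest, median and highest levels were 43.4, 69.0 and 99.4 CPM when high and 37.0, 59.4 and 72.9 CPM when low. With the sort as a block the adjusted p was 0.00561 for lin-4p::GFP and 0.0185 for autofluorescence, against 0.0942 and 0.199 without it.

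The log2 ratio of mml-1 to mxl-2, added after the fold changes were seen, was lower in the predicted long-lived library in 17 of 17 sorts, with mean differences between -0.95 (autofluorescence) and -0.52 (mir-243p::GFP). In autofluorescence low libraries it averaged -0.68 ± 0.08, against 0.27 ± 0.04 in high libraries, and in lin-4p::GFP high libraries -0.93 ± 0.43, against -0.08 ± 0.46 in low libraries. Both pairs of groups were free of overlap, as were those of mir-240/786p::GFP at 0.09 ± 0.10 in low and 0.62 ± 0.23 in high libraries. The groups of mir-243p::GFP overlapped. Since mml-1 was lower and mxl-2 higher in 16 of 17 sorts each, the ratio restates those differences.

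mdl-1 (WBGene00003163, chromosome X, 6742351 to 6743899) averaged 29.7 ± 8.27 CPM in predicted long-lived and 36.7 ± 8.40 CPM in predicted short-lived libraries (SD, n = 17 each). Its pooled log2 fold change was -0.31 ± 0.11 with an adjusted p of 0.0127 (edgeR), and its groups overlapped with every biomarker. The clearest difference was with lin-4p::GFP, lower in 6 of 6 sorts, with a lowest, median and highest level of 14.4, 23.8 and 34.1 CPM when high and 24.1, 29.5 and 49.9 CPM when low. The log2 fold change there was -0.45 with an adjusted p of 0.0558, and 0.00340 with the sort as a block. With mir-243p::GFP, mdl-1 in high libraries had 36.9, 31.2, 49.2 and 26.3 CPM, against 37.2, 49.5, 43.5 and 45.7 CPM in low libraries. Its levels were 34.7, 29.7, 25.4 and 31.9 CPM in mir-240/786p::GFP low libraries, against 35.5, 47.9, 29.5 and 32.3 CPM in high libraries, and 31.8, 36.2 and 29.3 CPM in autofluorescence low libraries, against 30.8, 39.6 and 38.5 CPM in high libraries. None of these 3 differences passed 0.05 (adjusted p 0.390, 0.379 and 0.653).

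mxl-1 (WBGene00003509, chromosome V, 11244839 to 11245926), the partner of mdl-1, averaged 47.97 ± 10.0004 CPM in predicted long-lived and 40.2 ± 7.98 CPM in predicted short-lived libraries (SD, n = 17 each). Pooled, its log2 fold change was 0.25 ± 0.06 with an adjusted p of 0.00100 (edgeR), higher in 15 of 17 sorts. In autofluorescence low libraries it had 55.1, 59.9 and 61.0 CPM, against 50.1, 47.0 and 43.5 CPM in high libraries, without overlap. The adjusted p for autofluorescence was 0.0965, and 0.0379 with the sort as a block. With lin-4p::GFP its lowest, median and highest levels were 44.3, 55.8 and 61.99 CPM when high and 31.9, 48.0 and 50.7 CPM when low (log2 fold change 0.28, adjusted p 0.0402). With mir-240/786p::GFP, mxl-1 in low libraries had 35.4, 40.3, 41.8 and 39.4 CPM, against 35.3, 32.0, 30.2 and 36.4 CPM in high libraries. The mir-243p::GFP high libraries had 40.98, 41.6, 30.1 and 42.3 CPM, against 42.8, 26.5, 32.3 and 35.8 CPM in low libraries, and in sorts 1 and 3 the high library was the lower one.

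The log2 ratio of mdl-1 to mxl-1, also added after the fold changes were seen, likewise restates the differences of these genes. It was lower in predicted long-lived libraries in 15 of 17 sorts, with mean differences between -0.76 (lin-4p::GFP) and -0.47 (mir-240/786p::GFP). Across the pairs, mml-1 over mdl-1 was lower in 10 of 17 sorts, with mean differences of the log2 ratio between -0.43 (autofluorescence) and -0.07 (mir-240/786p::GFP), all below 0, and its groups overlapped with every biomarker. mxl-2 over mxl-1 was lower in 8 of 17 sorts, with mean differences between -0.13 and 0.04. Of 3 related bHLH-Zip genes none was called. sbp-1, the SREBP gene, gave 0.40 (adjusted p 0.0153), mxl-3 gave 0.31 (0.263) and hlh-30, the TFEB gene, gave -0.12 (0.276).

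**Figure D4:**
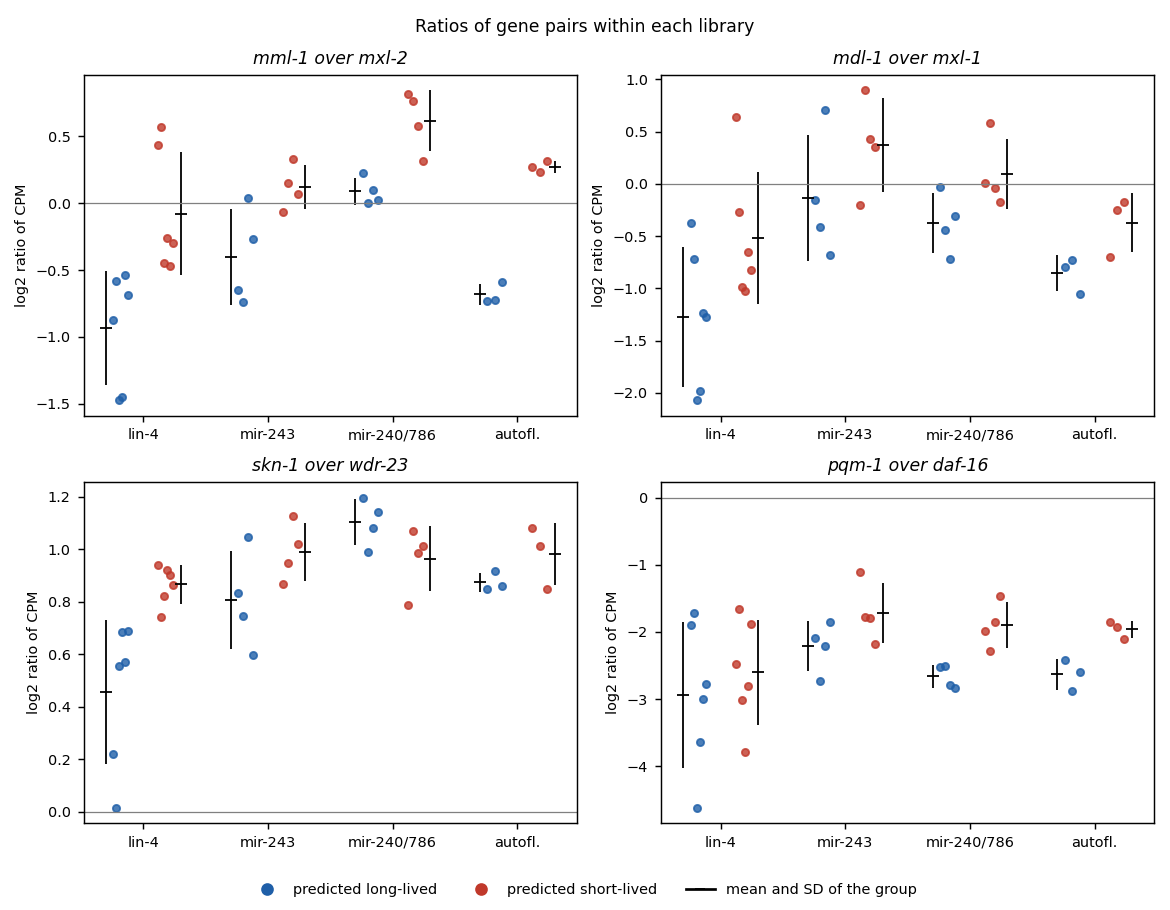
Log2 ratio of CPM of a pair of genes in each library, with predicted long-lived libraries in blue left of predicted short-lived libraries in red for each biomarker, and ticks and bars for the mean and SD of a group. In the plot of mml-1 over mxl-2 the 3 autofluorescence low libraries lie between -0.73 and -0.59 and the 3 high libraries between 0.23 and 0.32.

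sptf-3 was lower in predicted long-lived animals in 16 of 17 sorts. sptf-3 (WBGene00012735, chromosome I, 13360053 to 13366888) averaged 121 ± 18.7 CPM in predicted long-lived and 154 ± 24.1 CPM in predicted short-lived libraries (SD, n = 17 each). The pooled log2 fold change was -0.35 ± 0.06, a 1.27-fold lower level, with an adjusted p of 4.39e-06 (edgeR).

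In autofluorescence low libraries sptf-3 had 110, 104 and 121 CPM, against 162, 150 and 189 CPM in high libraries. In mir-240/786p::GFP low libraries it had 133, 129, 138 and 136 CPM, against 180, 171, 193 and 152 CPM in high libraries. In both comparisons the groups did not overlap, with log2 fold changes of -0.58 (adjusted p 0.00130) and -0.38 (0.00964).

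In mir-243p::GFP high libraries sptf-3 had 131, 132, 137 and 150 CPM, against 169, 146, 165 and 153 CPM in low libraries (log2 fold change -0.21, adjusted p 0.215). In lin-4p::GFP high libraries it had 86.3, 90.9, 103, 138, 107 and 106 CPM, against 140, 164, 116, 130, 115 and 118 CPM in low libraries. The difference lay mostly in sorts 1 and 2, which were set apart with these levels known. The log2 fold change was -0.71 (adjusted p 4.79e-05, edgeR) in these alone and -0.09 (0.428) in sorts 3 to 6 alone, values that describe the split and do not test it. Within sorts 3, 5 and 6 the difference in log2 CPM was -0.17, -0.10 and -0.16, and in sort 4 it was 0.09. Without sorts 1 and 2 the pooled value was -0.28 with an adjusted p of 5.56e-05.

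Relatives of the members by protein family did not share a direction. Of 12 tested, 3 were lower and 2 higher, where 21.6% and 19% of all genes were. The Sp-family genes sptf-1 and sptf-2 moved apart, sptf-1 lower at -1.78 (1.13e-10) and sptf-2 higher at 0.82 (3.94e-05). Of the forkhead genes related to pha-4, unc-130 was lower at -1.30 (1.16e-08) and pes-1 higher at 0.51 (4.39e-05). Of 18 other factors of longevity and stress, 6 were lower and 3 higher, beside the same shares of all genes. zip-2, a bZIP factor of pathogen defence, led with -1.98 (2.32e-13). xbp-1, the factor of the endoplasmic reticulum stress response, gave -1.34 (6.97e-13). The nuclear receptor genes nhr-49 and daf-12 were lower at -0.50 (3.79e-10) and -0.64 (6.16e-08).

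Within a single biomarker no member reached the threshold of 0.0001 (edgeR). Of all genes 14.2% did with lin-4p::GFP, 0.814% with mir-243p::GFP, 15.1% with mir-240/786p::GFP and 7.18% with autofluorescence. By DESeq2 1 member, wdr-23 with mir-240/786p::GFP, did, where 23.5% of genes did. In simulated data with few changed genes, the procedure recovered 0% of the smallest changes with every biomarker. Those were about the pooled size of skn-1. At the next size, about that of mml-1 with autofluorescence, it recovered 8.16% with lin-4p::GFP. With mir-243p::GFP, mir-240/786p::GFP and autofluorescence it recovered 0% at that size. The lack of calls thus says little about changes of these sizes. At an unadjusted p under 0.05 there were 6 members with lin-4p::GFP, 4 with mir-243p::GFP, 5 with mir-240/786p::GFP and 4 with autofluorescence, where 55.8%, 35.9%, 56.7% and 50.8% of all genes were. At an adjusted p under 0.05 there were 5, 3, 3 and 3 in the same order, where 50.3%, 23.6%, 51.2% and 43.0% of all genes passed. These shares of the members lay at or under the background except with mir-243p::GFP, where 3 of 10 stood beside 23.6%.

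The member that passed 0.05 with all 4 biomarkers was pha-4. mml-1 passed with lin-4p::GFP, mir-243p::GFP and autofluorescence, and sptf-3 with lin-4p::GFP, mir-240/786p::GFP and autofluorescence. skn-1 passed with lin-4p::GFP (adjusted p 0.0157) and mir-243p::GFP (0.0401), mxl-1 with lin-4p::GFP (0.0402) and wdr-23 with mir-240/786p::GFP. hsf-1, pqm-1, mdl-1 and mxl-2 passed with none of them in the fit without the block. Apart from wdr-23 with lin-4p::GFP, every member had the same sign of log2 fold change with each of the 4 biomarkers.

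Brightness, high against low fluorescence, was fitted with predicted lifespan held in the model. Bright animals are the predicted long-lived ones in the lin-4p::GFP and mir-243p::GFP sorts and the predicted short-lived ones in the other sorts. An effect of brightness therefore cannot be told apart from a difference by predicted lifespan that varies between these sets of biomarkers. No member passed 0.0001 or 0.05 (edgeR, and none with DESeq2), where 0% and 0.204% of genes did, and none passed an unadjusted p of 0.05, where 15.5% of genes did. The log2 fold changes for brightness lay between -0.08 (mdl-1) and 0.10 (wdr-23, adjusted p 0.350).

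The mean level also differed between the 4 sorted populations, whatever the predicted lifespan. mml-1 (adjusted p 4.42e-06, edgeR) and mxl-1 (1.40e-05) were called in this test, where 12% of genes were, and with sptf-3 (0.000489), pha-4 (0.00306) and mdl-1 (0.0349) 5 members passed 0.05, where 43.3% of genes did. mml-1 averaged highest in mir-240/786p::GFP, at 63.4 ± 3.93 CPM in low and 78.7 ± 10.7 CPM in high libraries, and lowest in lin-4p::GFP, at 36.1 ± 7.62 CPM in high and 51.9 ± 4.81 CPM in low libraries. mxl-1 averaged highest in autofluorescence, at 58.7 ± 3.09 CPM in low and 46.9 ± 3.29 CPM in high libraries, and lowest in mir-240/786p::GFP and mir-243p::GFP, whose groups averaged between 33.5 and 39.2 CPM. Strain, sorting days and sequencing runs cannot be told apart in this comparison.

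Over the 8 groups the levels of pha-4 ran from lin-4p::GFP high (7.09 ± 1.49 CPM) through mir-243p::GFP high (9.55 ± 0.699), autofluorescence low (9.73 ± 3.49), lin-4p::GFP low (12.8 ± 4.64), mir-240/786p::GFP low (13.4 ± 2.44), mir-243p::GFP low (17.3 ± 4.39) and autofluorescence high (19.5 ± 2.55) up to mir-240/786p::GFP high (22.1 ± 8.93). Each neighbour in that order lay within the SD of the next except the lowest pair, where the gap between the means was larger than either SD. The predicted short-lived group of lin-4p::GFP thus lay below the predicted long-lived group of mir-240/786p::GFP, by less than either SD.

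Markers of other tissues moved with predicted lifespan over the same libraries, and no listed marker was at 0 in a whole group. Of 14 germline markers 6 were higher at 0.0001 and none lower, 13 were higher without lin-4p::GFP sorts 1 and 2, and 12 with the sort as a block. Their summed level ran between 5156 and 5670 CPM in autofluorescence low libraries, against 1972 and 3119 CPM in high libraries, and between 4434 and 5089 CPM in mir-240/786p::GFP low libraries, against 1948 and 2932 CPM in high libraries. It overlapped between groups with lin-4p::GFP (3219 to 7456 CPM when high, 2298 to 5313 CPM when low) and mir-243p::GFP (3470 to 5130 CPM when high, 3078 to 4204 CPM when low). oma-2 and puf-5, which act in oocytes, were higher at 0.80 (7.53e-10) and 0.65 (2.30e-06).

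Of 7 neuron markers 3 were lower, led by the syntaxin gene unc-64 at -1.02 (8.18e-11), and of 5 epidermis markers 2 were lower, lin-26 at -0.37 (2.61e-05) and the cuticle collagen gene dpy-7 at -2.17 (4.51e-10). The other epidermis markers, the collagen genes col-140, col-12 and col-19, had values above 0 that did not pass 0.05 (0.82, 0.56 and 0.40), and the median of the list was 0.40. Neuron markers summed to between 276 and 309 CPM in autofluorescence low libraries, against 415 and 445 CPM in high libraries. Most of that sum was snb-1, with 255 CPM at the median library. The neuron markers ric-4, egl-3 and sng-1 gave 0.03, -0.04 and -0.18 without passing 0.05. Of 6 body muscle markers 1 was higher, unc-27 at 1.74 (9.68e-08), and 1 lower, hlh-1 at -1.52 (1.03e-08). Of 3 sperm markers 1 was lower, fer-1 at -0.82 (2.76e-05), and none was called without lin-4p::GFP sorts 1 and 2. The part of these tissues in the differences of the 10 genes was not tested.

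The genes whose log2 CPM followed each member most closely over the 34 libraries are given as a description, since the libraries share strains, sorts and depth. The closest to skn-1 were tag-325 (Pearson r 0.96), nhl-2 and xpo-1, to mml-1 kin-20 (0.94), sor-1 and hosl-1, and to sptf-3 cel-1 (0.94), lnkn-1 and ham-3. The closest to mxl-2 were hda-6 (0.95), lst-4 and T27F6.7, and to hsf-1 gldi-3 (0.92), lin-26 and atgl-1. For mxl-1 they were W01D2.1 (0.89), C14C11.7 and F35H10.5, for pha-4 irx-1 (0.86), plr-1 and tmd-2, and for mdl-1 ifbp-1 (0.85), nhr-203 and npr-24. The loosest were those of pqm-1, pqn-67 (0.84), trx-3 and R10D12.1, and of wdr-23, C06E1.9 (0.80), istr-1 and vms-1. No member was among the 3 closest genes of another member. A correlation above 0.5 was common for pha-4, mml-1 and sptf-3, with 25.8%, 25.9% and 27.5% of genes tested, and rare for wdr-23, with 4.05%.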

How the data were processed

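RNA of 34 pools of sorted whole adults was sequenced after poly(A) selection and ribosomal depletion. The authors deposited raw read counts per gene, with no normalization, for 20223 features including a gfp row. The submitters' processing notes name STAR 2.7.3a, featureCounts and WBcel235, while the annotation, strand setting and treatment of multi-mapped reads are not given in the sources used here. Counts of overlapping genes and near-identical copies are therefore uncertain. All columns were mapped to samples through their labels, which give biomarker, high or low, and sort number.

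Genes with at least 5 counts in 26 of 34 libraries were kept (14245). Counts were scaled by TMM and tested in R 4.3.3 by the quasi-likelihood F-test of edgeR 4.0.16, and p-values were adjusted by the Benjamini-Hochberg method over every gene that passed the filter. The differences within biomarkers came from a model of 8 group means and the pooled difference from a model with the biomarker as a term. SE is the log2 fold change over the root of F. CPM are TMM-scaled, with a prior count of 2 for log2 CPM. A call is an adjusted p under 0.0001, and 0.05 is given beside it. The study also modelled a sequencing batch. No label names it, and it was left out of the models. Positions come from the Ensembl release 115 annotation of WBcel235.

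The labels give each high and low library a shared sort number, which pairs them. Deviations from the group means correlated between -0.07 and 0.57 within sorts, over 0.1 in 11 of 17 sorts. The fit without the sort is the one reported, and the fit with the sort as a block is an alternative. No replicate pair agreed within counting noise (chi-square per degree of freedom 10.4 to 257). Floors cover counting error only. The procedure was tested on simulated data.

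All 10 members are named in every comparison, with up to 4 genes of each further list (those with the smallest pooled p) and the 3 genes most correlated with each member. Named in addition were daf-16, cul-4, ddb-1, gcs-1, hsb-1, hsp-1, hsp-110, dnj-13, sti-1, hsp-70, hsp-16.1, hsp-16.2, hsp-16.41, hsp-16.48, ric-4, egl-3, sng-1 and col-19. They were named after their values were seen or as the partner in a ratio. Members were taken by name without a rule on values, but members and lists were chosen with earlier results of these data known. Of the listed symbols, 6 had no row under that name and were left out. Alternatives were the block, RLE scaling, library totals, DESeq2 1.42.0, no filter, the libraries of a single biomarker, lin-4p::GFP sorts 1 and 2 or 3 to 6 alone, the pooled fit without sorts 1 and 2, and each library left out.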

Additional observations from a re-analysis of the deposited data

Results flagged for a closer look

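In 4 of the 60 combinations of a gene and a group of 4 or 6 libraries, 1 library lay far from the others of its group by Dixon's test at the 95% level, which chance gives in about 1 of 20 groups. wdr-23 had 115 CPM in the mir-240/786p::GFP low library of sort 1, below the 119 to 120 CPM of the other 3. In the same library pha-4 had 17 CPM, above the 11.9 to 12.4 CPM of the other 3. mxl-1 had 31.9 CPM in the lin-4p::GFP low library of sort 1, below the 43.1 to 50.7 CPM of the other 5. mxl-1 had 30.1 CPM in the mir-243p::GFP high library of sort 3, below the 40.98 to 42.3 CPM of the other 3.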

How the results depend on the processing

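The 3 pooled calls (pha-4, mml-1, sptf-3) held under every alternative, and between 3 and 4 members were called when each of the 34 libraries was left out in turn. The fourth was skn-1, in 6 of these fits. The number of members called with lin-4p::GFP was 0. In sorts 1 and 2 only, set apart with their levels known, it was 3 (skn-1, hsf-1, sptf-3), where 11.5% of all genes were called. With mir-240/786p::GFP it was 0, and 1 (wdr-23) with DESeq2, where 23.5% of all genes were. On leaving out 1 library it ran from 0 to 1 with lin-4p::GFP (mml-1, without high replicate 5) and from 0 to 1 with mir-240/786p::GFP (wdr-23, without lin-4p::GFP high replicate 1), stayed at 0 for mir-243p::GFP, autofluorescence, the difference between biomarkers and brightness, and ran from 2 to 3 for the level between strains (sptf-3, without lin-4p::GFP high replicate 4 or low replicate 2).

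With the sort as a replicate block the pooled calls were 3 again, where 44.5% of all genes were called, and the members past 0.05 were 7 with lin-4p::GFP, 4 with mir-243p::GFP, 3 with mir-240/786p::GFP and 5 with autofluorescence, where 60.8%, 37.3%, 60.5% and 54.5% of all genes were. Among the members the block changed no other call than those given beside the results. In the lists, the pooled calls higher were 12 and not 6 of the germline markers, 3 and not 1 of body muscle, 5 and not 4 of intestine, 2 and not 1 of pharynx muscle, 3 and not 2 of the PQM-1 partners, 4 and not 3 of the PHA-4 list, 2 and not 1 of the chaperones, 4 and not 3 of the other longevity factors and 1 and not 2 of the family relatives. Calls lower were 6 and not 5 of the SKN-1 regulators, 3 and not 2 of the HSF-1 regulators, 5 and not 4 of the PHA-4 list and 0 and not 1 of sperm. The block could not be fitted for the level between strains. Without the filter hsf-1 lost 0.05 in the pooled fit (adjusted p 0.0949).

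Signs turned only where changes were near 0 or in lin-4p::GFP. wdr-23 with lin-4p::GFP was -0.038 with library totals only, -0.0052 in the lin-4p::GFP libraries alone, -0.18 in sorts 1 and 2, and between -0.0060 and 0.079 on leaving out 1 library. hsf-1 with lin-4p::GFP was 0.010 in sorts 3 to 6, pqm-1 0.028 in sorts 1 and 2, and mxl-2 with mir-243p::GFP between -0.044 and 0.22 on leaving out 1 library. For brightness pha-4 was 0.0076 with the block, 0.0056 with RLE scaling and 0.0055 with DESeq2. On leaving out 1 library, brightness gave -0.070 to 0.047 for pha-4, -0.0036 to 0.042 for hsf-1, -0.022 to 0.12 for pqm-1 and -0.043 to 0.0066 for mxl-1. The cause of these turns was not tested.

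Calls over all genes, the background of the counts, moved more. With mir-243p::GFP 116 genes were called, and 425 with the block, 713 with DESeq2, 56 with library totals and 57 in its own libraries alone. With autofluorescence 1023 were called, and 2146 with the block, 2034 with DESeq2 and 0 in its own libraries alone. With lin-4p::GFP it was 2025, and 3170 with DESeq2, 1061 in sorts 3 to 6 and 283 in its own libraries alone. With mir-240/786p::GFP it was 2149, and 3353 with the block and 3354 with DESeq2, and for the level between strains 1703, and 3073 with DESeq2. For the difference between biomarkers it was 0, and 14 with DESeq2, and at 0.05 it was 248, and 2284 with the block. The counts at 0.05 for brightness were 29, and 1144 with the block. The promoter motif description was not run.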
